A study of Mus musculus with 12 samples.

Results

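Cholesterol synthesis, uptake and its control by sterol regulatory element-binding proteins (SREBPs) were followed through 30 named genes in mouse embryonic stem (ES) cells given the mTOR inhibitor INK128. The genes were taken by symbol from the 54446 gene identifiers in each expression table, and every one of the 30 passed the filter on low values, a mean of at least 1 TPM (transcript share scaled to a fixed library total) over the libraries, together with 15727 genes in all. Of these members, 19 encode enzymes from acetoacetyl-CoA to cholesterol, 5 the SREBP control system and 6 proteins of sterol transport, storage and lipid control.

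RNA depleted of ribosomal RNA was sequenced in 12 libraries that form 6 groups of 2. The lines were KH, taken as the wild type, and DNMT3ABKO, a knockout of the enzymes Dnmt3a and Dnmt3b that set new DNA methylation. The targeted genes fitted the line labels, with Dnmt3a between 7.35 and 21.9 TPM in DNMT3ABKO and between 54.7 and 144 TPM in KH libraries, and Dnmt3b between 12.7 and 27.5 TPM and between 142 and 258 TPM. Each line was collected in the untreated state (0 h) and after 72 and 144 h in INK128, a treatment that brings ES cells into a dormant state used as a model of embryonic diapause. The labels put E14 in front of both line names, whereas the study's methods call the wild-type feeder-grown line KH2. Each genotype is 1 line, the methods describe culture of both on inactivated feeder fibroblasts, and viable cells were sorted before RNA extraction. There was no untreated culture at 72 or 144 h, so treatment and time in culture cannot be told apart. Spike-in RNA had been added but is not among the deposited values, so a TPM value is a share of a library's RNA. With spike-in normalisation, the study reports lower global transcription under mTOR inhibition in wild-type and Dnmt3a/b knockout cells. A higher share at a later time is therefore not necessarily more RNA per cell. The read depth, which TPM does not keep, is unknown, and 15178 to 15811 genes reached 1 TPM in a library.

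Cells make cholesterol from acetyl-CoA through mevalonate, farnesyl diphosphate, squalene and lanosterol. SREBPs are transcription factors held in the endoplasmic reticulum, bound to Scap, by the Insig proteins while sterols are plentiful; when sterols fall, they are carried to the Golgi, cleaved, and enter the nucleus to switch on the synthesis genes. mTOR complex 1 is known to promote SREBP activity, and Srebf2 is the form best known for sterol synthesis, Srebf1 for fatty acid synthesis.

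Promoter sequence was examined first because the members are known as a co-regulated group. RefSeq promoter windows (GRCm38.p6, the patch series of mm10, 250 bases before to 50 bases after the start site) were found for 25 of the 30 members, among them 16 enzymes. The letters of a classical sterol regulatory element, TCACNCCAC, were searched on both strands with the palindromic E-box CACGTG, the CCAAT box and the GC box GGGCGG. In the windows of the members no match of one motif overlapped a match of another. The CCAAT letters were held by 21 of the 25 members and by 15 of the 16 enzymes, against 41.1% of all 27025 genes with a window and 37.4% of all 32851 windows. The GC box was held by 22 members, against 38.2% of genes and 35.7% of windows. The E-box was held by 6 members (Hsd17b7, Sc5d, Dhcr7, Scap, Insig1 and Abca1), against 8.09% of genes and 7.15% of windows. The sterol element in this spelling was held only by Hmgcs1 among the 25 members, against 1.44% of genes and 1.24% of windows. The reference windows include genes whether or not they are expressed in ES cells, and a match is a string of letters, not a binding site.

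The following stretches are shown because they hold the sterol element (Hmgcs1), the E-box (Hsd17b7 and Insig1) or repeated CCAAT letters (Mvk) in front of genes described below, and because Srebf2 is the SREBP gene itself. Each is given 5′ to 3′ on the strand of the gene, in lower case, with matches to the sterol element, the E-box and CCAAT in capitals (ATTGG is CCAAT on the other strand); each lies upstream of its gene in the deposited annotation and touches no annotated exon. Positions count from the RefSeq start site. In Hmgcs1 (chr13:119690151-119690350, plus strand) the sterol element began at position -137 from the start site, between CCAAT letters at -176 and -45. In Mvk (chr5:114444069-114444268, plus strand) the CCAAT letters occurred at -173, -120, -67, -50 and -14. In Hsd17b7 (chr1:169969242-169969405, minus strand) the E-box lay at -143, and in Insig1 (chr5:28071212-28071362, plus strand) at -101. Srebf2 (chr15:82147069-82147180, plus strand) held CCAAT letters at -135.
Hmgcs1: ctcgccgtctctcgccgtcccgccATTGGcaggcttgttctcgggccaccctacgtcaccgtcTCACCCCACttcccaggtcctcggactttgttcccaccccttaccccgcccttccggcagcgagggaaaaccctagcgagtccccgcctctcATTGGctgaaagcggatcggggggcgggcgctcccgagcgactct
Mvk: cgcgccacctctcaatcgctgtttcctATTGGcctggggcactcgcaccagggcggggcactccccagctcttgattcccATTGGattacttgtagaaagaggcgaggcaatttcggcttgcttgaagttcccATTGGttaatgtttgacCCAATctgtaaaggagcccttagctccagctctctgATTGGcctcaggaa
Hsd17b7: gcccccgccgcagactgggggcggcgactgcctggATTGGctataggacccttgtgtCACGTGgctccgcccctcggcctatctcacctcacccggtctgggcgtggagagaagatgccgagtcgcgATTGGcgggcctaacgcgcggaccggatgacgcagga
Insig1: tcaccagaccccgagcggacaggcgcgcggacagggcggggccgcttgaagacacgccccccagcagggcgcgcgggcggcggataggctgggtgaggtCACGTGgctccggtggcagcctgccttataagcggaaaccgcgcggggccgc
Srebf2: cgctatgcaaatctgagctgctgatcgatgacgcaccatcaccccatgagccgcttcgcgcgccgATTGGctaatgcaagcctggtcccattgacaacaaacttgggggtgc

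In untreated cells, the early enzymes gave the most transcripts per length. The sum of the 19 enzymes was 845 and 927 TPM in the KH libraries and 764 and 918 TPM in the DNMT3ABKO libraries, most of it from the mevalonate and isoprenoid steps (505 and 536 TPM in KH). The level of Fdps, which makes farnesyl diphosphate, was 154 and 165 TPM in KH cells at 0 h, and that of Hmgcs1, the synthase of hydroxymethylglutaryl-CoA, was 145 and 159 TPM. Hsd17b7, a late 3-ketosteroid reductase, was lowest among the enzymes, at 8.94 and 10.7 TPM. Srebf2 stood at 81.7 and 89.6 TPM and Srebf1 at 23.4 and 25.4 TPM, and the ranges of these genes did not overlap.

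**Figure D1:**
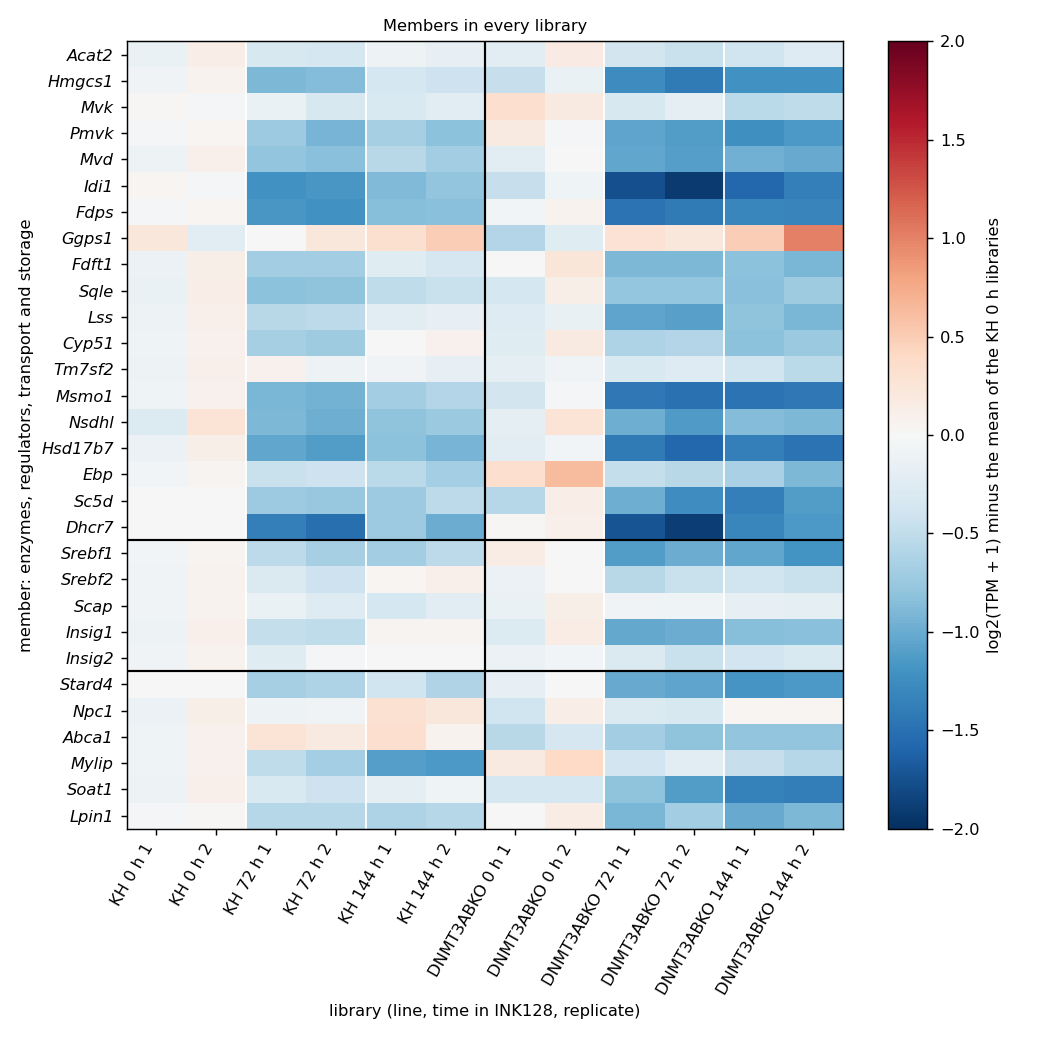
Each of the 30 members (rows, enzymes in pathway order, then regulators, then transport, storage and lipid control) in each of the 12 libraries (columns), as log2(TPM + 1) minus the mean of the KH 0 h libraries. Most enzyme rows turn blue (lower) at 72 h in both lines, several KH rows pale again at 144 h, and Ggps1 is the row that turns most red.

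To ask how the pathway responded to mTOR inhibition, 72 and 144 h were compared with 0 h in each line. Sterol synthesis transcripts were broadly lower by 72 h: 15 of 19 enzymes were called lower in KH and 17 in DNMT3ABKO. The median log2 difference over the 19 enzymes was -0.81 in KH and -1.003 in DNMT3ABKO, beside 0.08 and 0.12 over all tested genes. Log2 differences are on the log2(TPM + 1) scale throughout, and calls are limma tests with a Benjamini-Hochberg adjusted p under 0.05. Over all 30 members, 22 were called lower in KH cells at 72 h, where 19.5% of all tested genes were. The number called higher was 0, where 28.3% of all tested genes were. At an unadjusted p under 0.05 the limma counts were 24 and 0. No share of all genes is given at that unadjusted threshold, here or below, so the unadjusted counts have no background. In DNMT3ABKO cells 25 members were called lower (21.6% of all genes) and 1 higher (34.3%). At 144 h, 19 members were called lower in KH cells (23.9% of all genes) and 0 higher (27.4%), with 19 and 0 at an unadjusted p under 0.05. At the same time 26 were called lower in DNMT3ABKO cells (26.2%) and 1 higher (31.4%), or 2 without DNMT3ABKO 0 h replicate 2. Leaving out KH 0 h replicate 1, or either DNMT3ABKO 0 h library, gave 1 member called higher in KH cells at 144 h.

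The summed enzyme level stood at 506 and 499 TPM in KH and 435 and 419.6 TPM in DNMT3ABKO libraries at 72 h. At 144 h it was 636 and 633 TPM in KH and at 443 and 466 TPM in DNMT3ABKO libraries. The groups did not overlap between 0 h and the later times in either line, and at 144 h the KH libraries lay above both DNMT3ABKO libraries. In bulk RNA, fewer cells of a type and less RNA per cell cannot be told apart. The 20 markers of fibroblasts, the feeder cell type, fell at both steps. Their summed level ranged from 2160 to 2371 TPM in KH at 0 h, from 695 to 713 TPM at 72 h and from 127 to 132 TPM at 144 h. In DNMT3ABKO libraries it ranged from 2442 to 2464, from 535 to 590 and from 140 to 145 TPM. All 19 tested fibroblast markers were called lower at 72 and at 144 h in both lines, and none of the defining ones (Col1a1, Col1a2, Col3a1, Dcn, Lum and Pdgfrb) was at 0 in any library. Macrophage markers (14 genes) summed to 343 to 375 TPM in KH and 293 to 326 TPM in DNMT3ABKO at 0 h. At 72 h the sums were 257 to 267 and 174 to 177 TPM, and at 144 h 39.7 to 41.5 and 57.9 to 60.4 TPM. Against 0 h, 8 of the 14 were called lower and 3 higher in KH at 72 h, and 9 lower and 1 higher in DNMT3ABKO. At 144 h, 14 were called lower in KH and 13 in DNMT3ABKO. All 4 of their defining genes were above 0 in every library. The 10 ES cell markers summed to 4325 to 4606 TPM in KH at 0 h and 6764 to 6872 TPM at 144 h. In DNMT3ABKO they summed to 4363 to 4410 and 6815 to 6851 TPM, and Pou5f1, Sox2 and Nanog were high in every library of both lines. Against 0 h, 1 of the 10 was called lower in DNMT3ABKO at each time, with 9 called higher at 72 h and 8 at 144 h. Nanog read 227 and 301 TPM in DNMT3ABKO at 0 h and 191 and 180 TPM at 72 h. The part of the other cell types in the results for the members was not tested.

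**Figure D2:**
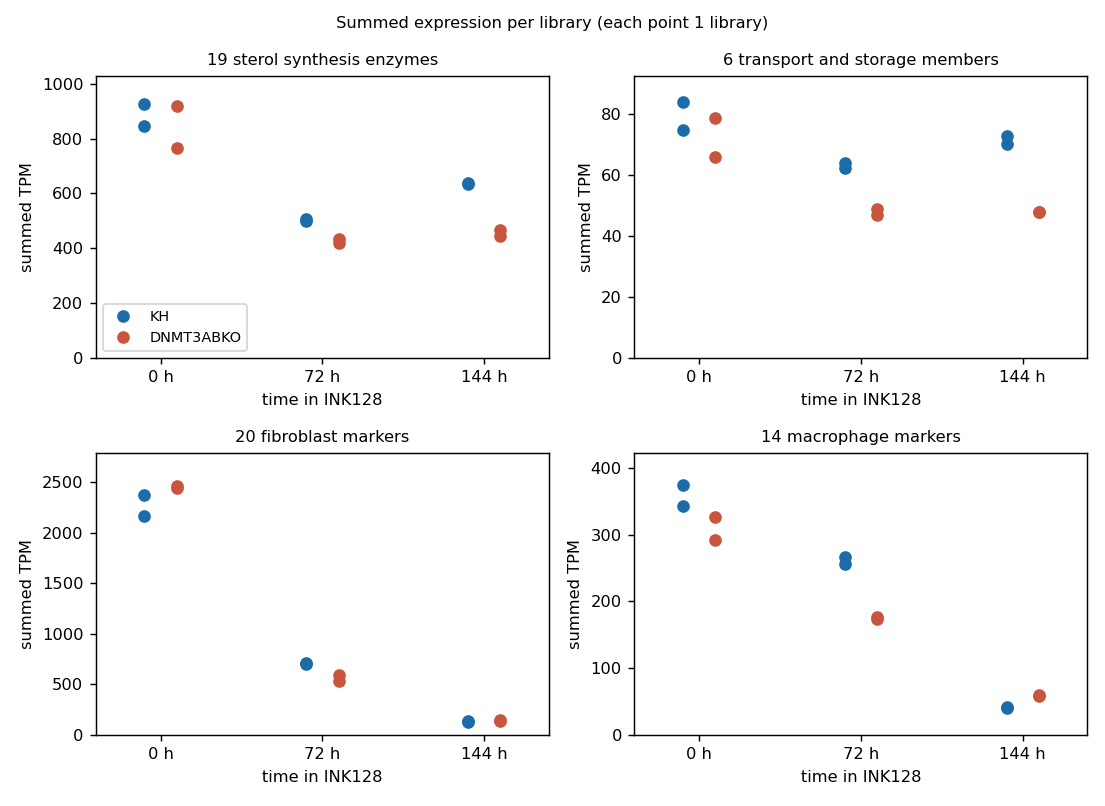
Summed TPM per library against time in INK128 for the 19 enzymes, the 6 transport and storage members, 20 fibroblast markers and 14 macrophage markers; each point is 1 library and all vertical axes start at 0. Both marker sums fall at each step in both lines. The KH enzyme sum is 499 and 506 TPM at 72 h and 633 and 636 TPM at 144 h.

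Among the mevalonate and isoprenoid steps, the falls at 72 h were widest at Idi1 and Fdps. Fdps (mm10, chromosome 3, 89093588 to 89101959, minus strand) went from 154 and 165 TPM in KH libraries at 0 h to 70.96 and 68.6 TPM at 72 h and to 87.5 and 88.5 TPM at 144 h. In DNMT3ABKO libraries it went from 153 and 167 TPM to 56.96 and 59.2 TPM, then to 63.6 and 63.3 TPM. Treated libraries lay below all untreated ones of their line, and the log2 difference at 72 h was -1.18 in KH (SE 0.06, adjusted p = 1.27e-06) and -1.45 in DNMT3ABKO (SE 0.06, adjusted p = 1.65e-07). Idi1, the isomerase that supplies dimethylallyl diphosphate, stood at 54.6 and 51.6 TPM in KH cells at 0 h, 22.4 and 23.1 TPM at 72 h and 28.4 and 30.2 TPM at 144 h. Its DNMT3ABKO libraries read 38.4 and 49.9 TPM, then 15.03 and 13.4 TPM, then 17.3 and 20.03 TPM at these times, and it was called lower at both times in both lines. Hmgcs1 (chromosome 13, 119690379 to 119708260, plus strand), the member with the sterol element shown above, stood at 80.9 and 82.9 TPM in KH and 62.8 and 56.01 TPM in DNMT3ABKO libraries at 72 h. That was 54.0% and 47.8% of the 0 h mean, with log2 differences of -0.88 and -1.05 (adjusted p = 0.000113 and 2.36e-05).

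Pmvk and Mvd, which phosphorylate and decarboxylate mevalonate products, were called lower in all 4 comparisons with 0 h, with log2 differences of -0.63 to -1.26. The KH libraries of Mvk, mevalonate kinase, read 15.6 and 15.1 TPM at 0 h and 13.9 and 12.1 TPM at 72 h, a difference that was not called (adjusted p = 0.0709). At 144 h it read 12.2 and 13.1 TPM in KH and was called (log2 difference -0.26, adjusted p = 0.0411), a call lost in 11 alternatives, among them a replicate block (the replicate number of a line as a model term) and leaving out either KH 0 h, KH 144 h, DNMT3ABKO 72 h or DNMT3ABKO 144 h library. In DNMT3ABKO cells Mvk was called at both times and in every alternative, with 19.7 and 17.6 TPM at 0 h, 12.1 and 13.5 TPM at 72 h and 10.3 and 10.5 TPM at 144 h. Acat2, the thiolase at the entry of the pathway, was called in only 1 of the 4 comparisons, DNMT3ABKO at 72 h (log2 difference -0.37, adjusted p = 0.0321), and that call was lost in 5 alternatives, among them leaving out DNMT3ABKO 0 h replicate 2 or either DNMT3ABKO 72 h library. Acat2 shares 97.7% identity over 1477 aligned bases with Acat3 and 98.7% over 445 bases with the far more abundant Tcp1 (422 TPM on average), and Idi1 shares 684 identical bases with Gm13502, whose mean of 22.8 TPM approached that of Idi1 (30.4 TPM), so reads may have been divided among these genes.

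Ggps1 rose in DNMT3ABKO cells, where its neighbours in the pathway fell. It makes geranylgeranyl diphosphate, used for protein prenylation, and leaves the sterol route at this point. Ggps1 (chromosome 13, 14050659 to 14063488, minus strand) read 14.1 and 18.2 TPM in DNMT3ABKO cells at 0 h, 26.6 and 25.6 TPM at 72 h and 30.7 and 44.5 TPM at 144 h. Both later groups lay above the 0 h libraries, with log2 differences of 0.67 (adjusted p = 0.0144) and 1.16 (adjusted p = 0.000571), and the call at 72 h was lost without DNMT3ABKO 0 h replicate 1, without 72 h replicate 1, or without the filter on low values. In KH cells it read 25.3 and 18.4 TPM at 0 h, 21.5 and 25.5 TPM at 72 h and 27.2 and 30.9 TPM at 144 h, not called at either time (adjusted p = 0.664 and 0.106). The difference between lines was not called (adjusted p = 0.133 for 144 h). Ggps1 overlaps Arid4b on the opposite strand, which averaged 34.7 TPM, and whether counting used the strand is not given in the sources used here, so its value is uncertain.

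The 3 squalene steps fell together at 72 h. Fdft1 (squalene synthase) read 51.6 and 60.4 TPM in KH cells at 0 h and 34.2 and 33.9 TPM at 72 h, and 55.7 and 66.2 TPM, then 29.6 and 29.6 TPM, in DNMT3ABKO cells. Sqle, the oxygen-dependent epoxidase, had log2 differences of -0.81 in KH and -0.65 in DNMT3ABKO (adjusted p = 0.000851 and 0.00228). Lss, which closes the ring to lanosterol, had log2 differences of -0.54 and -0.86 (adjusted p = 0.000741 and 2.62e-05). Fdft1 overlaps the similarly abundant Ctsb on the opposite strand (45.0 beside 42.7 TPM on average).

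After lanosterol, Dhcr7, the reductase of the last step towards cholesterol by one of its routes, fell most of all the members at 72 h. Dhcr7 (chromosome 7, 143823145 to 143848410, plus strand) fell in KH libraries from 29.04 and 28.5 TPM to 10.5 and 9.53 TPM at 72 h and stood at 17.1 and 13.99 TPM at 144 h. In DNMT3ABKO libraries the values were 29.3 and 30.95 TPM, then 8.04 and 7.11 TPM, then 11.1 and 12.4 TPM. No library of one time overlapped another time, and at 72 h the level was 34.8% of the 0 h mean in KH (log2 difference -1.44, SE 0.11, adjusted p = 6.82e-06) and 25.2% in DNMT3ABKO (-1.86, SE 0.11, adjusted p = 7.52e-07). Msmo1, Nsdhl and Hsd17b7, which together remove the methyl groups at carbon 4, were called lower at both times in both lines, with log2 differences of -0.64 to -1.36. Ebp, the sterol isomerase, read 19.9 and 21.4 TPM in KH and 26.2 and 32.6 TPM in DNMT3ABKO at 0 h, then 13.8 and 12.6 TPM in KH and 12.8 and 10.6 TPM in DNMT3ABKO at 144 h, and was called lower at both times in both lines. Sc5d, the desaturase at carbon 5, was also called lower in all 4 comparisons, although its DNMT3ABKO 0 h libraries differed widely (8.91 and 15.2 TPM). The KH calls at 72 h of both Ebp and Sc5d were lost without KH 0 h replicate 2 or either KH 72 h library, and the KH call of Sc5d at 144 h without either KH 0 h library, KH 144 h replicate 1 or the filter on low values. Tm7sf2, the reductase at carbon 14, stayed between 11.7 and 18.8 TPM in all libraries and was called only in DNMT3ABKO at 144 h (log2 difference -0.35, adjusted p = 0.0128), a call lost without DNMT3ABKO 144 h replicate 2 or with only the groups compared in the model. Tm7sf2 overlaps Vps51 on its own strand (8.20 TPM on average).

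**Figure D3:**
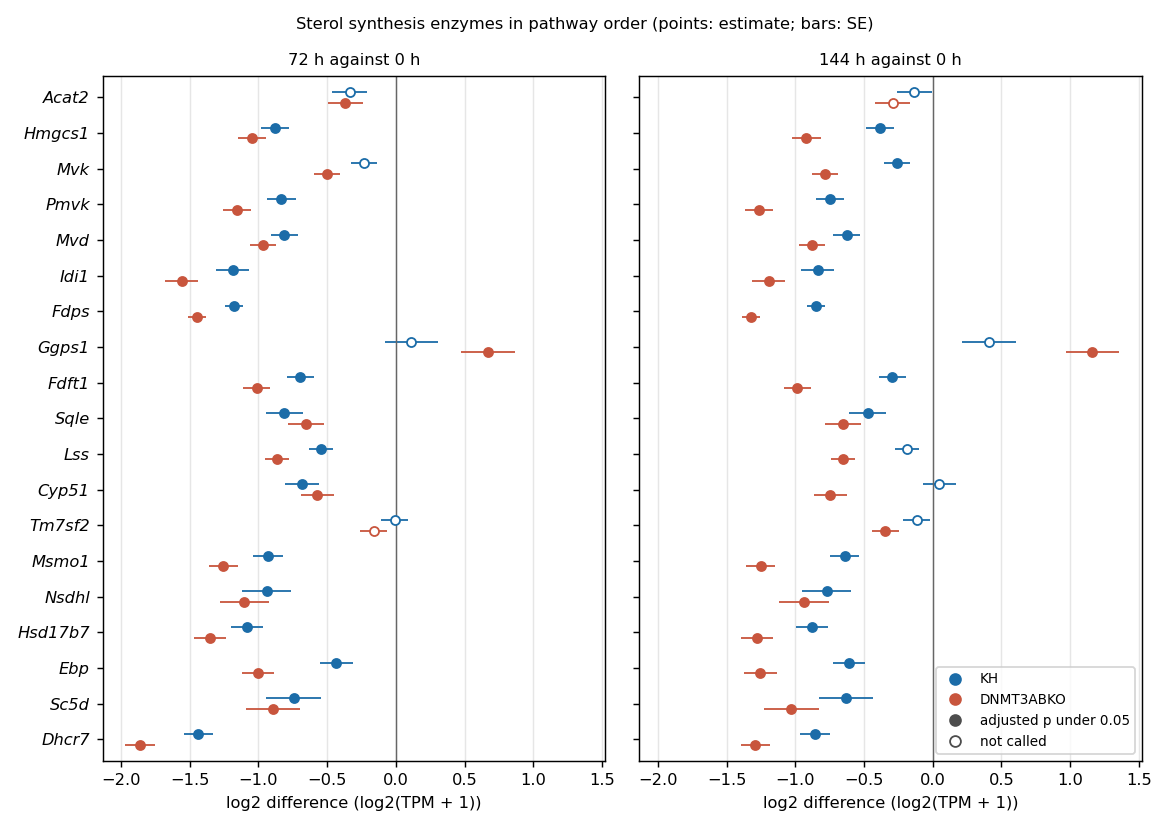
Log2 differences from 0 h (horizontal axes, log2(TPM + 1) scale) for the 19 enzymes in pathway order, at 72 h (left) and 144 h (right), in KH (blue) and DNMT3ABKO (red); points are limma estimates, bars 1 SE, and filled points passed the adjusted p of 0.05. At 72 h Dhcr7 lies farthest left (-1.44 in KH and -1.86 in DNMT3ABKO), and at 144 h the KH points of Fdft1, Lss and Cyp51 lie nearer 0 than those of DNMT3ABKO.

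Of the 5 regulators, 3 were called lower in KH cells at 72 h (Srebf1, Srebf2 and Insig1), where 19.5% of all tested genes were. In DNMT3ABKO cells 4 were called lower (21.6% of all genes), with Insig2 added. The estimates of all 5 were below 0 in both lines. Srebf1 (chromosome 11, 60199089 to 60222581, minus strand) read 23.4 and 25.4 TPM, then 16.6 and 15.04 TPM, then 14.6 and 16.6 TPM in KH libraries at 0, 72 and 144 h. In DNMT3ABKO libraries it read 27.2 and 24.6 TPM, then 10.8 and 11.7 TPM, then 11.4 and 10.04 TPM. Every treated library lay below every untreated one, with log2 differences at 144 h of -0.61 (adjusted p = 0.000686) and -1.20 (adjusted p = 5.22e-06). Insig1, an SREBP target that restrains SREBP in turn (chromosome 5, 28071363 to 28078662, plus strand), fell at 72 h, with log2 differences of -0.49 in KH and -0.94 in DNMT3ABKO. Those of Srebf2 at that time were -0.35 and -0.44. Insig2, the other Insig form, read 10.2 and 10.7 TPM in DNMT3ABKO at 0 h and 8.91 and 7.93 TPM at 72 h (adjusted p = 0.0354), and 10.5 and 11.8 TPM and then 9.21 and 10.9 TPM in KH, where it was not called (adjusted p = 0.296). The DNMT3ABKO call of Insig2 at 72 h was lost in 8 alternatives, among them leaving out DNMT3ABKO 0 h replicate 2, DNMT3ABKO 72 h replicate 2 or any 144 h library of either line. Without KH 72 h replicate 2 the KH call for Srebf2 was lost, and without KH 0 h replicate 2 that for Insig1. Scap, the escort that carries SREBP, remained between 19.6 and 27.5 TPM and was called only in KH at 144 h (log2 difference -0.28, adjusted p = 0.0372), a call lost in 10 of the alternatives. Srebf1 overlaps Rai1 on the opposite strand (7.64 TPM on average).

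Transport and storage genes divided. Stard4, a soluble sterol carrier, read 13.996 and 13.99 TPM in KH at 0 h and 8.45 and 8.77 TPM at 72 h, and 12.4 and 14.1 TPM, then 6.49 and 6.23 TPM, in DNMT3ABKO. Lpin1, a phosphatidate phosphatase that also acts on SREBP, fell from 8.45 and 8.69 to 5.43 and 5.41 TPM in KH and from 8.58 and 9.65 to 4.11 and 4.89 TPM in DNMT3ABKO libraries. Both were called lower at both times in both lines. Mylip, the ubiquitin ligase that degrades lipoprotein receptors, was the only member called lower in KH from 72 to 144 h as well, going from 6.08 and 6.93 TPM to 4.29 and 3.7 TPM and then to 2.48 and 2.38 TPM. Its 144 h level was 37.3% of the 0 h mean in KH and 51.4% in DNMT3ABKO. Npc1, which releases cholesterol from lysosomes, was called in no comparison over time, and its highest values were those of KH at 144 h (28.4 and 26.8 TPM beside 20.8 and 24.8 TPM at 0 h). Npc1 overlaps Rmc1 on the opposite strand (18.2 TPM on average). Abca1, the efflux pump, was called in 1 comparison over time, DNMT3ABKO at 144 h against 0 h (-0.34, adjusted p = 0.0363), a call lost in 8 alternatives, among them the replicate block and leaving out either KH 72 h library, DNMT3ABKO 0 h replicate 2 or either DNMT3ABKO 144 h library.

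The step from 72 to 144 h was then examined in each line. In KH cells 8 of the 30 members were called higher at 144 h than at 72 h, where 7.24% of all tested genes were: the enzymes Hmgcs1, Fdps, Fdft1, Lss, Cyp51 and Dhcr7 and the regulators Srebf2 and Insig1. Mylip alone was called lower (15.6% of all genes). In DNMT3ABKO cells 2 members were called higher, Idi1 and Dhcr7 (8.81%), and Soat1 was called lower (18.5%). The median log2 difference over the enzymes was 0.29 in KH and 0.08 in DNMT3ABKO, beside -0.04 and -0.06 over all tested genes. The KH count was 5 without KH 72 h replicate 1, 3 without KH 72 h replicate 2 and 4 without KH 144 h replicate 1, and Cyp51 and Dhcr7 were the members called in every alternative. It rose to 14 with median-ratio scaling and to 13 with only the groups compared in the model. In DNMT3ABKO cells Dhcr7 was called in every alternative, and the count of higher members was 8 with median-ratio scaling and 1 without any single KH library, either DNMT3ABKO 72 h library or DNMT3ABKO 144 h replicate 2, and also 1 with the replicate block. The count of lower members there was 2 without either DNMT3ABKO 0 h library. The Soat1 call was lost without DNMT3ABKO 72 h replicate 1 or either 144 h library, and the Mylip call in KH without KH 72 h replicate 1 or 144 h replicate 2.

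Cyp51, the demethylase that acts on lanosterol (chromosome 5, 4081145 to 4104746, minus strand), had the largest later step in KH among the members. Its KH libraries read 39.5 and 44.5 TPM at 0 h, 26.1 and 25.3 TPM at 72 h and 42.3 and 44.6 TPM at 144 h. Its DNMT3ABKO libraries read 35.1 and 47.8 TPM, then 27.03 and 27.5 TPM, then 23.3 and 24.8 TPM. The 144 h values thus overlapped those of 0 h in KH and lay below those of 72 h in DNMT3ABKO. The later step was 0.73 in KH (SE 0.12, adjusted p = 0.00224) and -0.17 in DNMT3ABKO (SE 0.12, adjusted p = 0.341), and the difference of the steps was -0.91 (SE 0.17, adjusted p = 0.0138). Cyp51 overlaps Akap9 on the opposite strand, which averaged 14.01 TPM beside 33.99 TPM for Cyp51.

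Insig1 read 61.4 and 70.5 TPM, then 46.999 and 45.9 TPM, then 68.2 and 68.4 TPM in KH libraries at 0, 72 and 144 h, and 54.3 and 72.8 TPM, then 31.8 and 32.7 TPM, then 36.1 and 36.6 TPM in DNMT3ABKO libraries. Srebf2 (chromosome 15, 82147181 to 82205379, plus strand) read 81.7 and 89.6 TPM, then 70.2 and 64.3 TPM, then 87.5 and 91.8 TPM in KH and 79.2 and 86.3 TPM, then 58.1 and 62.9 TPM, then 64.4 and 62.3 TPM in DNMT3ABKO. For both genes the KH libraries at 144 h overlapped those at 0 h, whereas the DNMT3ABKO libraries at 144 h stayed below every 0 h library. Soat1, which esterifies cholesterol for storage (chromosome 1, 156424525 to 156474331, minus strand), read 20.04 and 23.1 TPM, then 17.2 and 15.9 TPM, then 18.7 and 20.3 TPM in KH and 16.7 and 16.7 TPM, then 11.8 and 9.43 TPM, then 7.82 and 7.65 TPM in DNMT3ABKO. It therefore went lower at each time in DNMT3ABKO with no overlap between times.

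**Figure D4:**
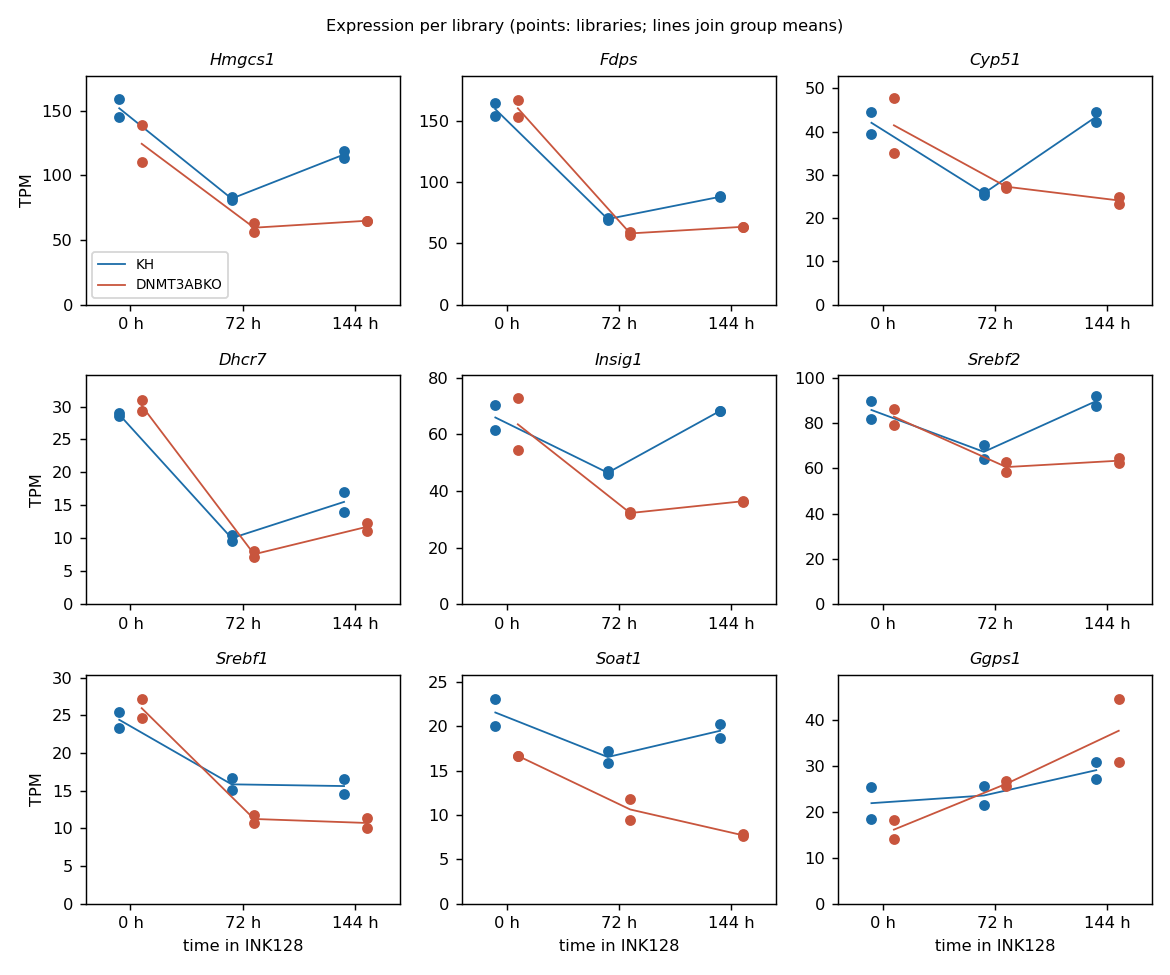
TPM in each library (points) against time in INK128 for 9 members, with lines joining the group means; vertical axes start at 0, KH is blue and DNMT3ABKO red. The KH points of Cyp51, Insig1 and Srebf2 at 144 h overlap those at 0 h and the DNMT3ABKO points do not, Soat1 declines in DNMT3ABKO to 7.65 and 7.82 TPM, and Ggps1 rises to 30.7 and 44.5 TPM there.

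The share of the 72 h fall regained by 144 h was computed for the 15 enzymes called lower at 72 h in both lines, as a description of the same values. The median share, on the log2 scale, was 29.5% in KH and 5.74% in DNMT3ABKO, and 14 of the 15 enzymes regained more in KH. The 72 h values enter both the fall and the share regained. The share was not computed for genes outside the members or under the alternatives, so it has no background. Ebp was the exception, lower at 144 h than at 72 h in both lines (not called in either, adjusted p = 0.333 and 0.149). Cyp51 regained 107% in KH and -30.3% in DNMT3ABKO, and Fdft1 57.8% and 2.69%. Dhcr7, by contrast, regained 40.4% and 30.6%.

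To ask whether the response differed between lines, the DNMT3ABKO change was compared with the KH change as an interaction. For 72 h against 0 h, 0 members were called lower and 0 higher in limma, where 1.86% and 3.38% of all genes were. At an unadjusted limma p under 0.05 there were 9 members, each lower in DNMT3ABKO, with no share of all genes to set beside them. Without DNMT3ABKO 0 h replicate 1 the count lower was 5, without replicate 2 it was 1, and with median-ratio scaling it was 4. For 144 h against 0 h, 12 members were called, each lower in DNMT3ABKO (3.70% of all genes), and 0 in the other direction (4.89%), with 18 and 1 at an unadjusted p under 0.05. Without DNMT3ABKO 0 h replicate 2, 1 member was called in the other direction. The 12 were the enzymes Mvk, Fdps, Fdft1, Lss, Cyp51, Msmo1 and Ebp, the regulators Srebf1, Srebf2 and Insig1, and Stard4 and Soat1. The estimates ran from -0.44 for Srebf2 to -0.88 for Soat1 (SE 0.16, adjusted p = 0.00651), with Insig1 at -0.83 (SE 0.17, adjusted p = 0.013). Over the 30 members 27 estimates were below 0, with a median of -0.44 beside 0.01 over all genes.

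These 12 calls depended on the model and on single libraries. Only Soat1 was called in every alternative, and only Fdps and Soat1 whichever library was left out. With only the groups compared in the model, 1 member was called, and with the replicate block 6 were. The count was 3 without KH 0 h replicate 1, KH 144 h replicate 1 or DNMT3ABKO 144 h replicate 2, and 5 without KH 144 h replicate 2 or DNMT3ABKO 144 h replicate 1. It was 6 without any of the 72 h libraries of either line, left out in turn. Beside these results, 7 of the 14 macrophage markers and 1 of the 19 tested fibroblast markers were called in the opposite direction (higher) in the same interaction, and their part in the result was not tested.

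For 144 h against 72 h, the difference of the steps was called for Cyp51 and Soat1, both lower in DNMT3ABKO (2.25% of all genes), and for 0 members in the other direction (3.08%), with 6 and 0 at an unadjusted p under 0.05. Soat1 gave -0.63 (SE 0.16, adjusted p = 0.0469). No library could be left out without moving this count: it was 4 without either DNMT3ABKO 0 h library, and 1 or 0 without each of the other 10. With only the groups compared in the model, 7 members were called, and with the replicate block 1 was. Neither of these 2 members kept the call in all alternatives. In the same interaction 11 of the 14 macrophage markers were called higher, and their part was not tested.

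**Figure D5:**
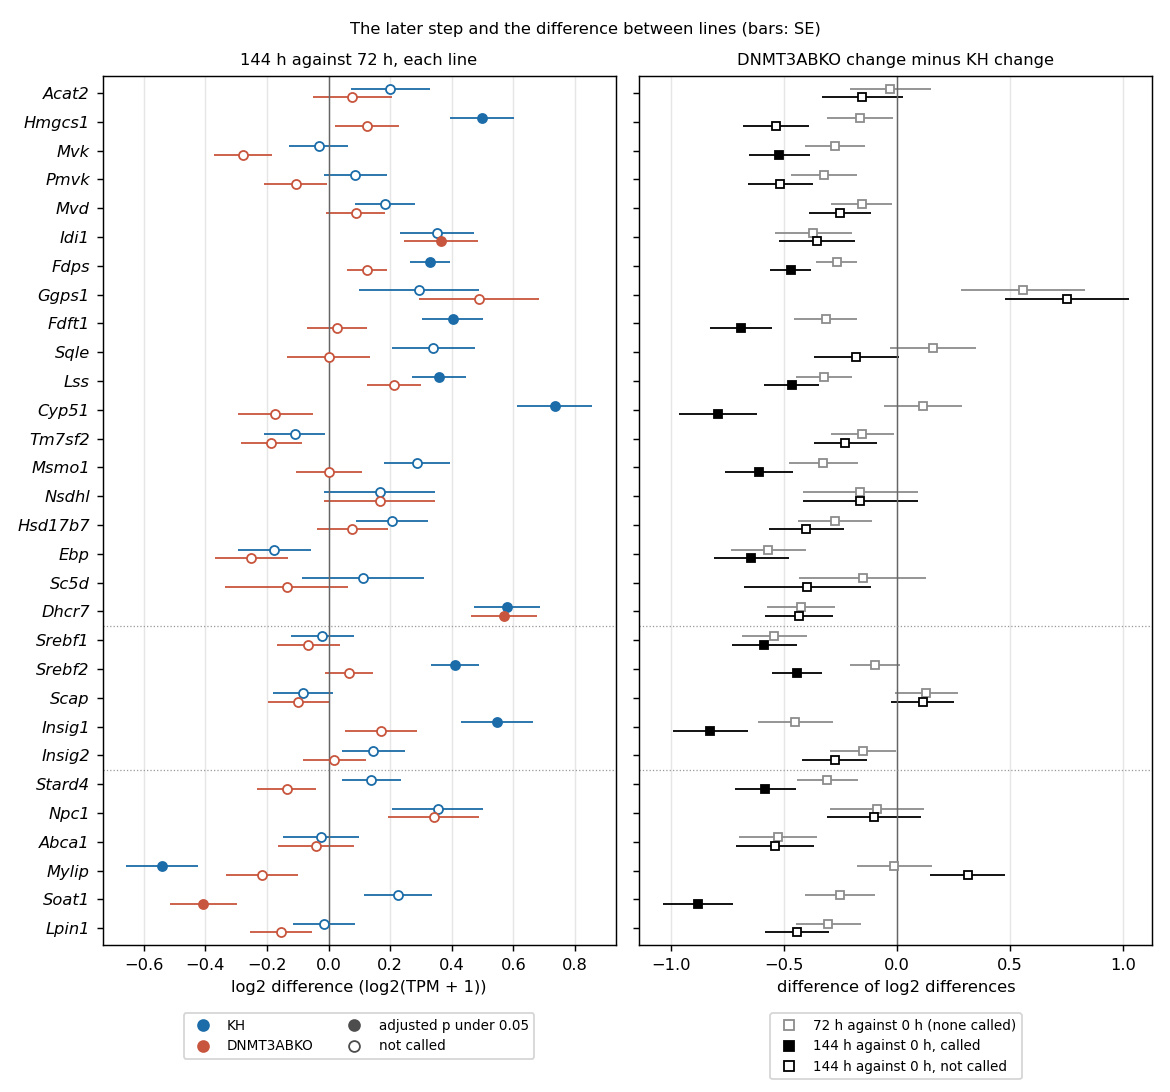
Left, log2 difference of 144 h against 72 h for the 30 members in KH (blue) and DNMT3ABKO (red). Right, DNMT3ABKO change minus KH change for 72 h (grey) and 144 h (black) against 0 h; points are limma estimates, bars 1 SE, filled points passed the adjusted p of 0.05, and dotted lines separate enzymes, regulators and transport. At 144 h the filled points reach from -0.44 (Srebf2) to -0.88 (Soat1), and no grey point is filled.

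The lines were also compared at each time. At 0 h they were close: 0 members were called lower in DNMT3ABKO in limma (4.14% of all genes) and 1 higher, Ebp (4.92%), with 5 and 3 at an unadjusted p under 0.05. The Ebp difference was 0.48 (adjusted p = 0.0318) and was lost in 10 alternatives, among them the replicate block and leaving out either KH 0 h library, either KH 72 h library or either DNMT3ABKO 72 h library. The DNMT3ABKO 0 h replicates were the farthest apart of all groups, with a correlation of 0.985 over tested genes beside 0.994 to 0.996 elsewhere, and 9 members were called lower without its replicate 2. Leaving out a KH 144 h library gave 1 such call. At 72 h, 12 members were called lower in DNMT3ABKO (10.0% of all genes) and 0 higher (9.26%), with 17 and 1 at an unadjusted p under 0.05. The count lower was 4, 6, 6 and 5 without KH 72 h replicate 1 or 2 or DNMT3ABKO 72 h replicate 1 or 2, and Idi1, Lss, Abca1 and Soat1 were called in every alternative. Of the 14 macrophage markers, 13 were also called lower in DNMT3ABKO at 72 h and 8 higher at 144 h, and of the 19 tested fibroblast markers 3 lower at 72 h and 3 higher at 144 h. Their part was not tested.

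At 144 h, 21 members were called lower in DNMT3ABKO (15.5% of all genes) and 1 higher (11.0%), and the median over the enzymes was -0.45 beside -0.04 over all genes. The 21 comprised 13 enzymes, 4 regulators (Srebf1, Srebf2, Insig1 and Insig2) and 4 transport and storage genes (Stard4, Abca1, Soat1 and Lpin1). The count was 13 without KH 144 h replicate 1 or DNMT3ABKO 144 h replicate 2. Mylip was the member called higher, with 4.42 and 4.03 TPM in DNMT3ABKO and 2.48 and 2.38 TPM in KH (0.61, adjusted p = 0.00415). Soat1 had the largest difference among the members (-1.23, SE 0.11, adjusted p = 2.45e-05). Abca1 read 7.49 and 6.91 TPM in KH and 3.34 and 3.03 TPM in DNMT3ABKO at 72 h, and 7.84 and 6.35 TPM in KH and 3.07 and 3.06 TPM in DNMT3ABKO at 144 h. Its groups did not overlap at either time, and the log2 differences were -0.97 (adjusted p = 0.000405) and -0.99 (adjusted p = 0.000271). Before treatment the Abca1 groups did not overlap either, with 5.63 and 6.4 TPM in KH and 3.76 and 4.55 TPM in DNMT3ABKO at 0 h. That difference was not called, and neither was the Abca1 interaction for 72 or 144 h against 0 h.

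Other genes of the wider pathway were read from 4 companion lists, in the fit of all 12 libraries only. How their calls depend on the alternatives was not examined. The fatty acid arm of SREBP, 13 tested genes of 14, had 8 called lower and 2 higher in KH at 72 h and the same counts in DNMT3ABKO, where 19.5% and 28.3% of all tested genes were called lower and higher in KH and 21.6% and 34.3% in DNMT3ABKO, with median log2 differences of -0.42 and -0.44. Scd1, the stearoyl-CoA desaturase, read 34.9 and 38.7 TPM in KH at 0 h, 6.51 and 7.06 TPM at 72 h and 11.3 and 10.4 TPM at 144 h, and 24.4 and 35.05 TPM, then 3.52 and 3.45 TPM, then 3.88 and 3.98 TPM in DNMT3ABKO. Fads2, the fatty acid desaturase, read 38.5 and 41.2 TPM, then 8.09 and 10.2 TPM, then 13.8 and 13.8 TPM in KH and 44.9 and 51.05 TPM, then 5.72 and 5.35 TPM, then 4.48 and 5.18 TPM in DNMT3ABKO. No treated library of either gene overlapped an untreated one, and the interaction at 144 h was -0.95 for Scd1 (adjusted p = 0.0169) and -1.61 for Fads2 (adjusted p = 0.000119). From 72 to 144 h, 7 of the 13 genes were called higher in KH (7.24% of all genes), and 1 higher (8.81%) and 2 lower (18.5%) in DNMT3ABKO. Elovl6, an elongase, went the other way, with 38.7 and 42.3 TPM at 0 h and 68.1 and 65.2 TPM at 72 h in KH (0.71, adjusted p = 0.000444) and a rise of 1.15 in DNMT3ABKO (adjusted p = 1.28e-05). Gpam, the first acyltransferase of triglyceride synthesis, rose at 72 h by 0.30 in KH and 0.38 in DNMT3ABKO (adjusted p = 0.0314 and 0.00843). It was not called at 144 h against 0 h in either line (adjusted p = 0.0619 and 0.328).

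Of the 12 genes of SREBP processing, 5 were called lower and 4 higher in KH at 72 h (19.5% and 28.3% of all genes) and 3 and 4 in DNMT3ABKO (21.6% and 34.3%), with medians of -0.02 and -0.01, so that the shares called higher, and that called lower in DNMT3ABKO, lay near those over all genes. Mbtps1, the Golgi protease that cuts SREBP first, read 60.1 and 64.6 TPM in KH at 0 h and 86.04 and 89.7 TPM at 72 h, and 50.6 and 58.01 TPM, then 77.97 and 73.8 TPM, in DNMT3ABKO, so that all treated libraries lay above the untreated ones of their line. Erlin2, which acts in sterol-regulated degradation in the endoplasmic reticulum, rose by 0.52 in KH and 0.64 in DNMT3ABKO (adjusted p = 0.0013 and 0.000273). Ubxn8, also of endoplasmic reticulum degradation, fell at 72 h, with log2 differences of -0.59 in KH and -0.83 in DNMT3ABKO (adjusted p = 0.00341 and 0.000335).

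The 14 genes of the isoprenoid branch after farnesyl and geranylgeranyl diphosphate had 2 called lower and 4 higher in KH at 72 h (19.5% and 28.3% of all genes). In DNMT3ABKO 3 and 3 were called (21.6% and 34.3%). The medians were 0.02 and 0.09, and each share was near or below that over all genes. Pggt1b, the catalytic subunit of the enzyme that adds geranylgeranyl groups to proteins, rose by 0.32 in KH and 0.55 in DNMT3ABKO at 72 h (adjusted p = 0.00516 and 0.000145). Zmpste24, the protease of prenylated proteins, and Rabggtb, of Rab geranylgeranylation, fell at 72 h in both lines, with log2 differences of -0.33 and -0.31 in KH (adjusted p = 0.0387 and 0.00426) and of -0.32 and -0.18 in DNMT3ABKO (adjusted p = 0.0381 and 0.0472).

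Among other sterol transport and liver X receptor genes, 15 of 18 were tested, with 6 called lower and 4 higher in KH at 72 h (19.5% and 28.3% of all genes) and 7 and 4 in DNMT3ABKO (21.6% and 34.3%), and medians of -0.11 and -0.17. Lrp8, a lipoprotein receptor, differed between lines at 72 h: it read 5.65 and 5.83 TPM, then 2.6 and 2.57 TPM, then 4.45 and 4.44 TPM in KH and 5.32 and 5.32 TPM, then 6.17 and 5.76 TPM, then 4.53 and 5.37 TPM in DNMT3ABKO. The KH libraries at 72 h lay below all others, and the interaction for 72 h against 0 h was 1.05 (adjusted p = 0.002). Vldlr, its relative, fell in both lines, from 2.91 and 3.45 to 0.709 and 0.666 TPM in KH and from 3.36 and 3.08 to 0.512 and 0.382 TPM in DNMT3ABKO at 72 h. Nceh1, a cholesterol ester hydrolase, and Gramd1b, a sterol carrier at membrane contacts, rose at 72 h in both lines. The log2 differences were 0.39 and 0.65 in KH (adjusted p = 0.0466 and 0.00657) and 0.58 and 0.64 in DNMT3ABKO (adjusted p = 0.00664 and 0.0058). Neither was called at 144 h against 0 h in KH (adjusted p = 0.362 and 0.0546) or DNMT3ABKO (adjusted p = 0.44 and 0.102).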

How the data were processed

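The deposited values are TPM per gene, 1 table per library. The authors trimmed reads with cutadapt 2.4, aligned them to mm10 with STAR 2.7.3a and quantified a GENCODE annotation with StringTie 2.0 (versions per the submitters' processing notes). TPM does not keep depth, so no counting interval can be given. Rows repeating an identifier (9 to 16 per table) were summed. Values were tested as log2(TPM + 1) for 15727 genes whose mean reached 1 TPM, with limma 3.58.1 in R 4.3.3 (lmFit, contrasts.fit and eBayes with a trend, two-sided), 1 coefficient for each of 6 groups and 12 contrasts, and Benjamini-Hochberg adjustment over all genes within a contrast. The study's methods name a count model, which TPM values cannot enter. The study's reporting summary describes independent repeats and biological replicates in general; the labels do not say whether the libraries of a group came from separate cultures, and if they did not, p-values measure only technical spread. It also says that the time points of a replicate were handled together, whereas deviations of same-numbered libraries correlated between -0.104 and 0.0996 within a line, so the fit with the replicate block is given beside each count it moves. Results for the members were recomputed with a pseudocount of 0.1 TPM, without the filter (37364 genes) and with median-ratio scaling. They were also recomputed with only the groups compared in the model, with the replicate number as a block, and leaving out each library. Results for the companion lists and the markers were not examined in these alternatives. The model was run on simulated data with known changes for KH 72 h against 0 h only, with the same spread in all groups. The simulation did not cover the interactions or the wider spread of DNMT3ABKO at 0 h, and its result is not given here.

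The members, the companion lists, the marker lists and the tests were chosen with earlier results of these data known. All 30 members are named. From each companion list, at most the 2 called genes with the largest and the 2 with the smallest log2 difference in KH cells at 72 h were named, with groups that did not overlap; some genes that met this rule are not reported here. Genes overlapping or near-copying a member were named where they make a value uncertain. They were found in GENCODE M21, near copies with BLAST at 95% identity or more over at least 200 bases. Promoter windows are those of RefSeq. Python 3.11.15, pandas 2.3.3, NumPy 2.4.6 and matplotlib 3.10.9 were used.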

Additional observations from a re-analysis of the deposited data

Results flagged for a closer look

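The change from 0 h to 144 h differed between lines, by the interaction term, for 12 members, each lower in DNMT3ABKO cells. The difference of log2 differences was -0.52 for Mvk, -0.47 for Fdps, -0.69 for Fdft1, -0.47 for Lss, -0.79 for Cyp51, -0.61 for Msmo1 and -0.65 for Ebp. Among the regulators it was -0.59 for Srebf1, -0.44 for Srebf2 and -0.83 for Insig1, and for the transport and storage genes -0.58 for Stard4 and -0.88 for Soat1. The change from 72 to 144 h differed between lines for Cyp51 (-0.91) and Soat1 (-0.63). With groups of 2 libraries, no library was tested for standing apart from its group.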

How the results depend on the processing

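The falls at 72 and 144 h in both lines kept their direction under every alternative, and the counts of members called lower from 0 h stayed within 1.5 times. With median-ratio scaling, which took the median over all genes from 0.12 to 0.0064 for DNMT3ABKO at 72 h, the enzyme median was -0.90 for KH and -1.12 for DNMT3ABKO at 72 h, 0.35 and 0.13 for 144 h against 72 h, and -0.0441 between lines at 0 h. That scaling called 14 members higher from 72 to 144 h in KH and 8 in DNMT3ABKO, 2 lower and 2 higher between lines at 0 h, 1 higher at 72 h, and 4 lower in the interaction for both 72 h against 0 h and 144 h against 72 h. With only the groups compared in the model, the counts were 13 higher for KH and 4 higher and 2 lower for DNMT3ABKO from 72 to 144 h, 0 higher between lines at 0 h, and 1 and 7 for the interactions of 144 h against 0 h and against 72 h. Without a filter 0 members were higher in DNMT3ABKO at 72 h, 1 from 72 to 144 h, 0 between lines at 0 h, and 1 was called in the interaction for 144 h against 72 h. A pseudocount of 0.1 TPM also gave 1 there, and an enzyme median of -0.99 for DNMT3ABKO at 144 h.

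With the replicate block, 6 members were called in the interaction for 144 h against 0 h and 1 for 144 h against 72 h, 1 was higher in DNMT3ABKO from 72 to 144 h and 0 between lines at 0 h. No other count of members moved by over 1.5 times under the block, which also ended the calls over time of Mvk, Fdft1 and Scap in KH and Insig2 and Abca1 in DNMT3ABKO at 144 h, and those between lines of Hsd17b7 and Dhcr7 at 72 h and of Tm7sf2 and Sc5d at 144 h.

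Leaving out each library in turn gave ranges as follows. The enzyme median ran from -0.87 to -0.69 for KH 72 h against 0 h, -0.64 to -0.49 for KH 144 h against 0 h, -1.14 to -0.87 for DNMT3ABKO 72 h against 0 h, -1.11 to -0.78 for DNMT3ABKO 144 h against 0 h, -0.23 to 0.0701 for DNMT3ABKO against KH at 0 h, -0.29 to -0.19 for DNMT3ABKO against KH at 72 h, -0.51 to -0.37 for DNMT3ABKO against KH at 144 h, -0.33 to -0.15 for the interaction of 72 h against 0 h and -0.50 to -0.37 for the interaction of 144 h against 0 h. The number of members called lower ran from 0 to 1 for KH 144 h against 72 h, 0 to 2 for DNMT3ABKO 144 h against 72 h, 0 to 9 for DNMT3ABKO against KH at 0 h, 4 to 14 for DNMT3ABKO against KH at 72 h, 13 to 24 for DNMT3ABKO against KH at 144 h, 0 to 5 for the interaction of 72 h against 0 h, 3 to 15 for the interaction of 144 h against 0 h and 0 to 4 for the interaction of 144 h against 72 h, and the number called higher from 0 to 1 for KH 144 h against 0 h, 3 to 12 for KH 144 h against 72 h, 0 to 1 for DNMT3ABKO 72 h against 0 h, 1 to 2 for DNMT3ABKO 144 h against 0 h, 1 to 3 for DNMT3ABKO 144 h against 72 h, 0 to 1 for DNMT3ABKO against KH at 0 h and 0 to 1 for the interaction of 144 h against 0 h. The enzyme median between lines at 0 h turned positive without KH 0 h replicate 2 (0.0032) or DNMT3ABKO 0 h replicate 1 (0.0701).

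Depth is unknown in TPM tables, so low members such as Hsd17b7 and Mylip carry an unknown counting error. With 2 libraries a group, each call rests on a spread shared over 6 groups, of which DNMT3ABKO at 0 h was the widest (residual SD 0.272 on the log2 scale, 0.133 to 0.176 elsewhere). Feeder markers fell with time in both lines, and their part was not tested.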
